A study of Mus musculus with 2 samples.

Results

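Mature Ccr7-positive dendritic cells (DCs) of B16 melanoma were examined in single-cell RNA sequencing of live CD45+ tumour leucocytes. The members were chosen by their own counts: a cell barcode had to hold at least 1 unique molecule (UMI) of Ccr7 and at least 2 of Fscn1, none of Cd3d, Cd3e or Cd3g, at most 10 UMIs of C1qa, C1qb and C1qc per 10000, and fewer than 100 of S100a8 and S100a9 per 10000. This gate took 239 barcodes of the 13818 that held at least 200 genes and at most 10% mitochondrial UMIs, of 14341 barcodes in all. It took 98 of 5661 in the library labelled WT and 141 of 8157 in the library labelled KO. Each genotype was 1 library of several 8-week-old mice whose tumours were pooled, so no difference between the libraries has a replicate check, and no test was made. Intervals are 95% intervals and cover counting error only.

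Both groups carried Mettl3 fl/fl, that is, floxed copies of the gene for the catalytic subunit of the m6A methyltransferase. In the KO group 1 Lyz2 allele also drove Cre (Lyz2 cre/+), and the WT group kept both (Lyz2 +/+). Lyz2 is a lysozyme gene of macrophages, monocytes and granulocytes. In the gate it stood at 268 UMIs per 1000000 UMIs (CPM) in the library labelled WT and 241 in that labelled KO, against 6024 and 2715 CPM in C1q-high macrophages, and the T cell gate held 1405 and 667 CPM. In both of these gates Lyz2 was thus lower in the library labelled KO. Whether the Cre allele has a part in this was not tested. Mettl3 (ENSMUSG00000022160, chr14:52294841-52305128, minus strand, GRCm38) had 5 and 6 UMIs in the gate, or 6.51 and 6.78 CPM. In macrophages it stood at 10.3 and 10.9 CPM. The targeted gene was thus not lower in the library labelled KO, and 3' counts need not show the loss of an internal exon, so the Mettl3 counts check nothing about the labels or about recombination in these cells.

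Dendritic cells sample their tissue and show peptides of what they take up to T cells. Conventional type 1 DCs (cDC1) are known for cross-presentation to CD8 T cells and cDC2 for presentation to CD4 T cells. When either matures, it acquires Ccr7, the receptor that guides it along Ccl19 and Ccl21 to lymph nodes, and Fscn1, the actin-bundling fascin of its dendrites, while uptake and new synthesis of MHC class II wane. In tumours such cells carry costimulatory and inhibitory ligands side by side and are a known source of Ccl22 and Ccl17, ligands of the Ccr4 receptor of regulatory T cells. Maturation is known to run through NF-kB, above all the Relb and Nfkb2 subunits.

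The 2 libraries held 45963969 and 54052317 UMIs. Members had a median of 5554 UMIs and 1672 genes in the library labelled WT, and 4982 UMIs and 1673 genes in that labelled KO, with 828 UMIs in the smallest and 77040 in the largest member. Among all 14341 barcodes, 13 sequences occurred in both libraries, of which 0 were members. Of the members, 7 held 10 or more UMIs of another lineage's marker list. In the library labelled WT, 3 barcodes of 77040, 64597 and 43646 UMIs held 1017, 999 and 400 UMIs of melanoma genes (Pmel, Mlana, Dct, Tyrp1, Tyr, Mitf, Sox10) beside 1 Ccr7 UMI each, and they alone made up 24.1% of the gate's UMIs. Another barcode there held 50 granulocyte UMIs. In the library labelled KO a barcode of 45123 UMIs held 586 melanoma UMIs beside 29 of Ccr7, another held 38 B cell UMIs and another 17 natural killer cell UMIs, together 6.83% of the gate's UMIs. Without these 7, the summed melanoma list went from 3175 and 732 CPM to 38.0 and 74.0 CPM. Levels are therefore given for the 232 remaining members (94 labelled WT, 138 labelled KO) unless all 239 are named, and every count of genes is given both ways. This removal was chosen after the values were seen.

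The 232 members carried the label's other markers in both libraries. Cacnb3, a calcium channel subunit typical of migratory DCs (chr15:98630840-98644529), stood at 955 CPM (877–1038) in the cells labelled WT and 882 CPM (819–949) in those labelled KO, against 4.07 to 16.3 CPM in the macrophage and T cell gates. Il4i1, a secreted amino acid oxidase that restrains T cells (chr7:44816387-44840809), stood at 580 and 507 CPM against 2.63 to 26.2 CPM in the cDC gates. Socs2, a suppressor of cytokine signalling (chr10:95385362-95417180), stood at 461 and 502 CPM against 0 to 15.9 CPM. Ccl22 (chr8:94745590-94751699) stood at 2952 CPM (2814–3096) and 2357 CPM (2253–2464) against 0 to 60.4 CPM. All 4 genes were thus far above every comparison gate in each library. Cacnb3 had 0 UMIs in both cDC2 gates, where a count of 0 allows up to 3.17 CPM labelled WT and 2.89 labelled KO, which puts the members at least 301-fold and at least 305-fold higher. For such limits, and wherever the 7 barcodes were left out of a count of genes, the cDC gates were also taken without their own barcodes of other lineages (3 cDC1 and 2 cDC2 labelled WT, 1 cDC2 labelled KO), whereas the cDC levels printed are those of all cDC gate cells. The defining markers of other lineages were low or missing. Cd3d, Cd3e, Cd3g, Cd4 and Foxp3 were at 0 (the rule set the Cd3 genes there), as were Siglech of plasmacytoid DCs and Cd207 of Langerhans cells. Cd79a and Ms4a1 of B cells and Ncr1 of natural killer cells were at 0 too, but barcodes with many B or natural killer cell UMIs had been left out, and all members held 1 and 17 UMIs of Cd79a and 0 and 2 of each of the others. The macrophage list of 11 genes summed to 682 and 737 CPM against 22193 and 17957 CPM in C1q-high macrophages. The rule capped the C1q genes and C1q chose those macrophages, so this gap was partly set by the choice of cells. The other 8 genes of the list summed to 565 and 620 CPM against 13033 and 8809 CPM.

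**Figure D1:**
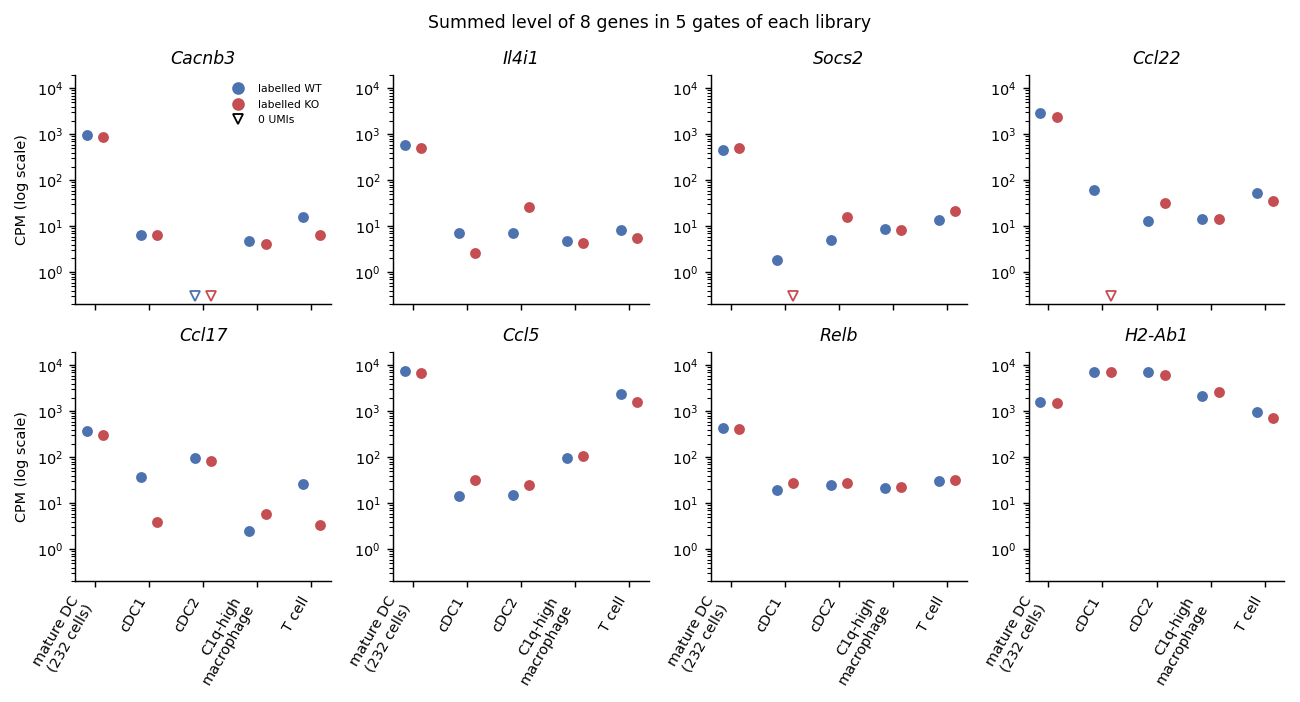
Summed level in CPM (log axis) of 8 genes in the 232 members and in the cDC1, cDC2, C1q-high macrophage and T cell gates, with 1 point for each library and an open triangle where a gate held 0 UMIs. The members lie above the other gates for Cacnb3, Il4i1, Socs2, Ccl22, Ccl17, Ccl5 and Relb, and below both cDC gates for H2-Ab1.

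The edges of the rule were read with all 239 members. The 7 with exactly 2 Fscn1 UMIs, 1 of them the barcode with 38 B cell UMIs, held 2085 CPM of Ccl22 and 682 CPM of Cacnb3. The 11 barcodes just outside, with 1 Fscn1 UMI, held 1474 and 453 CPM. The 17 members with exactly 1 Ccr7 UMI held 645 CPM of Ccl22 and 1969 CPM of Pmel, a melanoma gene. They included the 3 melanoma-rich barcodes labelled WT, which held 0, 0 and 1 UMIs of Cacnb3, Il4i1, Socs2 and Ccl22 together. Levels of this edge without those 3 were not computed. The 71 barcodes just outside, with at least 2 Fscn1 UMIs and no Ccr7, had a median of 46788 UMIs, 2299 CPM of Pmel and 10.4 CPM of Ccl22. At the other edge, 109 barcodes with Ccr7 and no Fscn1 had a median of 2002 UMIs and held 1354 CPM of Ccl22, 46.9 CPM of Cacnb3 and 3110 CPM of H2-Ab1. A further 54 barcodes with Ccr7 and Fscn1 (31 labelled WT, 23 labelled KO) were kept out by their Cd3, C1q or S100a8 and S100a9 counts. Their values are given in the closing section.

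Members made up 1.73% of the kept cells in each library (1.41–2.11% labelled WT, 1.46–2.04% labelled KO), and the log2 ratio of the shares, KO over WT, was -0.00 (-0.38 to 0.38). The comparison gates were read from the same cells: cDC1 by at least 2 UMIs of Xcr1 and Clec9a together, and cDC2 by at least 2 of Cd209a with neither of those. The cDC1 gate held 1.55% of the cells labelled WT (88 cells) and 0.821% of those labelled KO (67 cells), a log2 ratio of -0.92 (-1.40 to -0.45), and the cDC2 gate 2.37% (134) and 2.10% (171). There were 0.441 mature DCs for each cDC labelled WT and 0.592 for each labelled KO. For each cDC1 the numbers were 1.11 and 2.10, and for each cDC2 0.731 and 0.825. Shares of a single sort from pooled tumours have no replicate error here.

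A set of 4 chemokines stood out in the members. Ccl5 (chr11:83525778-83530518), which draws T cells and natural killer cells, was the highest of them, at 7457 CPM (7236–7683) in the cells labelled WT and 6935 CPM (6756–7117) in those labelled KO. The cDC gates held 14.7 to 31.6 CPM of Ccl5, the macrophage gate 96.3 and 106 CPM and the T cell gate, the other main holder, 2334 and 1606 CPM. Ccl17, the second Ccr4 ligand, stood at 369 and 307 CPM against 97.3 and 84.4 CPM in cDC2 and 37.5 and 3.95 CPM in cDC1. Cxcl16, the ligand of Cxcr6, stood at 641 and 556 CPM against 39.4 to 105 CPM in the cDC gates. The chemokines that macrophages make in quantity were not high: Ccl2, a monocyte attractant, stood at 34.5 and 218 CPM against 2404 and 2819 CPM in macrophages, and Cxcl9, which draws T cells through Cxcr3, at 107 and 195 CPM against 811 and 891 CPM. Of 12 chemokines compared with the cDC gates, 4 were above all 4 of those levels (Ccl22, Ccl17, Ccl5 and Cxcl16) in either version, 3 of them at least 4-fold, and 5 were below all 4 (3 without the 7). Over all genes compared, 27.2% were above all 4 cDC levels with all members and 28.3% without the 7, 36.1% and 44.6% were below all 4, and 4.15% and 4.81% were at least 4-fold higher. The list's median was -0.52 log2 units with all members and -0.48 without the 7, beside -0.17 and -0.26 over all genes.

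Among cytokines, Il12b, the p40 subunit shared by interleukin-12 and interleukin-23, was unseen in the cDC gates. It had 90 UMIs (155 CPM) in the cells labelled WT and 161 UMIs (195 CPM) in those labelled KO, and 0 UMIs in all 4 cDC groups, which puts the members at least 49.0-fold higher than any of them. In macrophages Il12b stood at 0.256 and 0.239 CPM. A further 29 of its UMIs lay in the 3 barcodes left out of the library labelled KO. Il15, which sustains natural killer and memory T cells, stood at 46.6 and 63.1 CPM against 1.02 to 17.8 CPM in the cDC gates. Il1b was at 311 and 380 CPM, above the 95.2 to 271 CPM of the cDC gates, and Tgfb1 at 60.4 and 77.7 CPM, below their 157 to 252 CPM. Of 6 cytokines compared, 4 were above all 4 cDC levels with all members and 3 without the 7, beside 27.2% and 28.3% of all genes, and Tgfb1 was below all 4.

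The costimulatory ligands of naive T cells were high on the members. Cd80 stood at 169 CPM (137–206) and 150 CPM (125–179) against 3.95 to 22.5 CPM in the cDC gates, while Cd86, the other Cd28 ligand, stood closer to them, at 155 and 186 CPM against 41.0 to 107 CPM. Cd40, through which helper T cells signal to DCs, was at 321 and 261 CPM against 24.996 to 94.7 CPM, and Cd83, which stabilises surface MHC class II and Cd86, at 749 and 702 CPM against 35.8 to 109 CPM. Cd70, the Cd27 ligand, had 37 and 47 UMIs in the members (63.9 and 57.0 CPM) and 2 in all the cDC gates together. Cd48, a ligand of 2B4, was the exception at 77.7 and 70.4 CPM, below the 180 to 255 CPM of the cDC gates. The costimulation list also holds Cd274 and Pdcd1lg2, which are given below as inhibitory ligands and counted there again. Of its 9 genes compared, 7 were above all 4 cDC levels (27.2% of all genes, 28.3% without the 7) and 5 at least 4-fold (4.15% and 4.81%). The list's median was 3.03 log2 units (3.20 without the 7).

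Inhibitory ligands were high beside them. Cd274, which encodes PD-L1, stood at 307 CPM (264–356) and 369 CPM (329–413) against 19.7 to 54.4 CPM in the cDC gates and 75.4 and 94.6 CPM in macrophages. Pdcd1lg2, for PD-L2, stood at 135 and 101 CPM against 9.21 to 13.3 CPM. Cd200, whose receptor restrains myeloid cells, stood at 582 and 612 CPM against 3.07 to 10.5 CPM. Fas was at 111 and 97.1 CPM against 4.58 to 9.37 CPM. Lgals9, for galectin-9, was below the cDC gates at 6.91 and 29.1 CPM against 56.8 to 107 CPM. Of 13 genes of the list, 7 were above all 4 cDC levels (27.2% of all genes, 28.3% without the 7), 6 of them at least 4-fold (4.15% and 4.81%), and 5 were below (4 without the 7), beside 36.1% and 44.6% of all genes.

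All 20 NF-kB subunits and targets of the list were above both cDC gates in both libraries, with and without the 7 barcodes, where 27.2% and 28.3% of all genes were. The list's median was 2.06 log2 units (2.25 without the 7). Relb, the subunit named above, stood at 425 CPM (373–481) and 409 CPM (366–455) against 19.2 to 28.1 CPM in the cDC gates. Its partner Nfkb2 stood at 280 and 297 CPM against 24.996 to 60.9 CPM, and Rel at 511 and 516 CPM against 57.9 to 101 CPM. Nfkb1 and Rela, the subunits of the canonical dimer, differed less: Nfkb1 stood at 437 and 436 CPM against 110 to 355 CPM, and Rela at 117 and 104 CPM against 44.0 to 69.4 CPM. Map3k14, the NF-kB-inducing kinase of the Relb arm, stood at 326 and 329 CPM against 13.2 to 48.7 CPM. Traf1, an adaptor of the Cd40 and TNF receptors, stood at 727 and 711 CPM (cDC gates 56.8 to 118). Birc2 stood at 375 and 448 CPM (cDC gates 17.1 to 42.2). Bcl2a1b, an anti-apoptotic target, had 2048 and 1933 CPM, though reads of the near-identical Bcl2a1 copies may have been split between them.

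Promoters of the pathway's own genes are printed because these genes were high together and because NF-kB binds kB sites, through which its subunits and inhibitors are known to be induced. Of the 20 genes, 18 had a promoter window in RefSeq (GRCm38.p6, 250 bases before to 50 after the start, 300 in all). In 6 of these genes a window held the consensus kB site on either strand (Bcl2l1, Nfkb2, Nfkbia, Nfkbie, Rel and Tnfaip3). That is 33.3%, against 5.14% of all 27025 genes with a window and 7.48% of the 2966 compared genes with one. The list was written as NF-kB subunits and targets, so a high share of kB sites was partly set by its choice. Matches may overlap each other. The 130 bases before the start follow, 5′ to 3′ on the gene's strand, with bases that match the consensus on either strand in capitals.
Nfkb2, chr19:46304607-46304736, plus strand: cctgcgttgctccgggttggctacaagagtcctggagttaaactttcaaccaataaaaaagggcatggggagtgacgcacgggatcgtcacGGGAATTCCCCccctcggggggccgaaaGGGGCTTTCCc
Rel, chr11:23770970-23771099, minus strand: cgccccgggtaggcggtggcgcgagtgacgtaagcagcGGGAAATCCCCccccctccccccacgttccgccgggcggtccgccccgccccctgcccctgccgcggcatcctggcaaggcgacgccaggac
Nfkbia, chr12:55492648-55492777, minus strand: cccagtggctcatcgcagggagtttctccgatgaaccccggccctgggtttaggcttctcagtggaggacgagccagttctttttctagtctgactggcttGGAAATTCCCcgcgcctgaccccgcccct
Nfkbie, chr17:45555570-45555699, plus strand: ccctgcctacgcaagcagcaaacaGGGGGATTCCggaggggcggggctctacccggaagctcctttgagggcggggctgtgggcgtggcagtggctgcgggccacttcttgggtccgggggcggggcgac
Tnfaip3, chr10:19015411-19015540, minus strand: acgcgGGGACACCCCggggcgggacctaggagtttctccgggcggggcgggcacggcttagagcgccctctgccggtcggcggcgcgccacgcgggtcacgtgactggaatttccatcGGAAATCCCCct
Nfkb2 and Rel, 2 subunits, thus hold sites close to the start, Nfkb2 at 39 and 11 bases before it and Rel at 92, and so do the inhibitors Nfkbia (29 bases), Nfkbie (106) and Tnfaip3 (125 and 12). In the members Nfkbia stood at 540 and 553 CPM (cDC gates 148 to 227), Nfkbie at 65.6 and 93.5 CPM (10.1 to 44.99) and Tnfaip3 at 109 and 86.2 CPM (18.4 to 34.8). Of the 139 genes at least 4-fold above the cDC gates in both versions, 107 had a window and 16 of these held the site (14.95%), among them Pdcd1lg2, Il2ra and Stap2. Of the 62 at least 4-fold below, 44 had a window and 2 held it (4.55%). A match describes letters in this window and is not a bound site.

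The genes of migration and the cytoskeleton followed the same pattern. Tbc1d4, a Rab GTPase regulator, stood at 1492 and 1617 CPM against 30.7 to 188 CPM in the cDC gates, and Tmem123, a membrane protein, at 1592 and 1620 CPM against 31.6 to 89.1 CPM. Samsn1 was at 1307 and 1249 CPM (8.24 to 71.2), Marcksl1, an actin-linked kinase substrate, at 1048 and 993 CPM (25.6 to 82.5), and Anxa3 at 361 and 301 CPM (8.24 to 14.5). Cd63, a tetraspanin, was at 879 and 702 CPM against 22.4 to 71.4 CPM in the cDC gates, but macrophages held nearly as much, at 768 and 627 CPM. Of 14 such genes beside the rule's own, 13 were above all 4 cDC levels (27.2% of all genes, 28.3% without the 7) and 8 at least 4-fold (4.15% and 4.81%), with a median of 3.46 log2 units (3.65 without the 7). The list of other maturation genes had 20 of 21 above all 4 cDC levels, 13 of them at least 4-fold (14 without the 7), against the same shares. Serpinb6b, a serpin, stood at 955 and 1012 CPM against 0.937 to 64.5 CPM, Nr4a3, an orphan nuclear receptor, at 558 and 504 CPM against 7.89 to 52.5 CPM, and Stat4, which relays interleukin-12 signals, at 325 and 311 CPM against 1.32 to 19.7 CPM. Mreg, a regulator of organelle transport, stood at 224 and 178 CPM against 0.916 to 4.69 CPM.

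Over all genes compared with the cDC gates, 154 of 3708 were at least 4-fold higher in the members in all 4 ratios, a background of 4.15%, and 70 were at least 4-fold lower (1.89%). Without the 7 barcodes there were 176 higher (4.81%) and 97 lower (2.65%) of 3662, of which 139 and 62 were shared with the first count. Gaps were ranked in the 232 members by the smallest of the 4 log2 ratios, with 1 CPM added. Where a cDC gate held 0 UMIs the ratio depends on the 1 CPM added, so the order is loose there. The largest gaps by this measure were those of Ccl5, Il12b, Nudt17, Cacnb3, Apol7c, Gm13546, Tmem150c, Adcy6, Stap2, Cd200, Dnajc12, Npr1, Slc27a3, Clu and Ccl22. Several of them were unseen in the cDC gates: Tmem150c (36 and 52 UMIs in the members) and Stap2 (33 and 48 UMIs) had 0 UMIs in all 4 groups, which puts the members at least 16.0-fold and at least 14.8-fold higher. Il2ra, the high-affinity interleukin-2 receptor chain, stood at 155 and 137 CPM against 0.916 to 2.81 CPM in the cDC gates and 67.8 and 71.96 CPM in T cells. At the other end stood Plet1, an adhesion-linked surface protein, with 0 UMIs in the members against 154 and 55 in the cDC1 and cDC2 cells labelled WT that held no other lineage. Camk1d, a calmodulin-dependent kinase, had 2 and 3 UMIs (3.45 and 3.64 CPM against 55.3 to 192). Alox5ap, which enables leukotriene synthesis, stood at 32.8 and 70.4 CPM against 643 to 839 CPM.

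**Figure D2:**
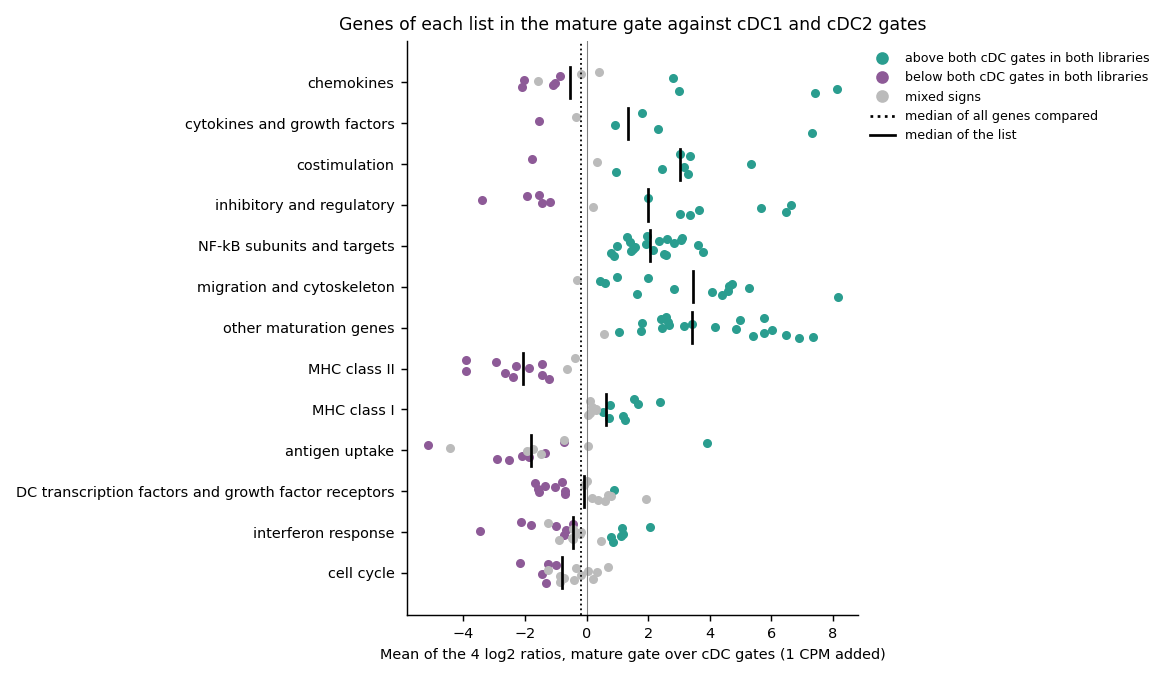
Mean of the 4 log2 ratios of the gate (all 239 members) over the cDC1 and cDC2 gates of each library, with 1 point per gene of 13 lists, coloured by whether the gene was above all 4 cDC levels, below all 4 or mixed, with the list's median as a bar and the median of all genes (-0.17) dotted. The 20 NF-kB genes lie to the right, and 10 of 12 MHC class II genes lie below all 4 cDC levels.

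MHC class II genes were lower in the members than in either cDC. H2-Ab1 (chr17:34257689-34269419), a chain of the class II molecule I-A, stood at 1602 CPM (1501–1709) and 1521 CPM (1438–1607) against 6216 to 7309 CPM in the cDC gates, and below the 2153 and 2596 CPM of macrophages. Its partner H2-Aa was at 3256 and 2484 CPM against 5348 to 5907 CPM. Cd74, the invariant chain, stood at 6488 and 5816 CPM against 13770 to 15293 CPM. Ciita, the transcriptional activator of these genes, had 21 and 52 UMIs (36.3 and 63.1 CPM against 292 to 332), and March1, a ligase that removes class II from the surface, 4 and 4 UMIs (6.91 and 4.85 CPM against 60.9 to 109). Of 12 genes of the list 10 were below all 4 cDC levels (36.1% of all genes, 44.6% without the 7), 5 at least 4-fold (1.89% of all genes, 2.65% without the 7), and 0 were above, with a median of -2.08 log2 units (-1.90 without the 7). MHC class I went the other way: 8 of 14 genes were above all 4 cDC levels with all members and 11 without the 7, beside 27.2% and 28.3% of all genes, with 0 below, and the median was 0.64 log2 units (0.83). H2-K1, a classical heavy chain, stood at 3182 and 3165 CPM against 1092 to 1233 CPM, B2m at 4384 and 4451 CPM against 1539 to 1878 CPM, and Psme2, of the proteasome activator, at 1704 and 1532 CPM against 331 to 505 CPM. Class I heavy chains resemble each other, and their counts may have been shared.

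Receptors of antigen uptake had a median of -1.81 log2 units against the cDC gates (-1.53 without the 7). Clec9a and Cd209a, which chose the comparison cells, are in this list. Of 14 genes compared, 7 were below all 4 cDC levels and 1 above, beside 36.1% of all genes below (44.6% without the 7). Fcer1g, the shared Fc receptor chain, stood at 528 and 620 CPM against 603 to 2434 CPM. The gene above was Ly75, which encodes the DEC-205 receptor, at 180 and 239 CPM against 36.8 and 41.2 CPM in cDC1 and 2.05 and 2.81 CPM in cDC2.

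Transcription factors and growth factor receptors of DCs were seen in the members at mixed levels. Flt3, the receptor for the DC growth factor, was at 294 and 238 CPM, beside 247 and 241 CPM in cDC1, 97.3 and 85.3 CPM in cDC2 and 4.98 and 5.86 CPM in macrophages. Zbtb46, a factor of conventional DCs, stood at 82.9 and 58.3 CPM, where macrophages had 1.15 and 1.38 CPM. Irf8, the cDC1 factor, was at 687 and 868 CPM, between the 2058 and 2183 CPM of cDC1 and the 163 and 157 CPM of cDC2. Batf3, its partner, stood at 292 and 302 CPM, near the 270 and 285 CPM of cDC1, and Irf4, the cDC2 factor, at 53.5 and 57.0 CPM, near the 53.2 and 52.5 CPM of cDC2. Of 17 genes of the list 8 were below all 4 cDC levels in either version, beside 36.1% and 44.6% of all genes, and 1 was above with all members (2 without the 7), with a median of -0.09 log2 units (0.10 without the 7).

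Branch markers were sparse in single members. In the 94 cells labelled WT, 10 (10.6%, 5.22–18.7%) had a UMI of a cDC1 list (Xcr1, Clec9a, Cadm1, Tlr3, Naaa, Wdfy4, Snx22) and none of a cDC2 list (Cd209a, Sirpa, Itgam, Clec10a, Mgl2, Cd209d, Clec4a4), 34 (36.2%, 26.5–46.7%) the reverse, 8 both and 42 (44.7%) neither. In the 138 labelled KO the numbers were 10 (7.25%, 3.53–12.9%), 28 (20.3%, 13.9–28.0%), 18 and 82 (59.4%). Among the cDC2 marks Sirpa was seen in 37 and 37 cells, Itgam in 5 and 16, Mgl2 in 5 and 7 and Cd209a in 0 and 1, and the cDC1 marks were led by Naaa (8 and 19 cells) and Clec9a (7 and 7). Cells with both had medians of 11032 and 10178 UMIs and cells with neither 4464 and 4453 UMIs, so these classes move with depth, whose part in them was not tested. The cDC2 list without Clec4a4 summed to 135 and 187 CPM in the members, and the T cell gate held more, at 294 and 284 CPM. Whether a single UMI of these marks came from the cell itself was not tested. Il12b stood at 443 CPM (287–654) and 364 CPM (238–533) in members with cDC1 marks alone, from 25 and 26 UMIs in 5 cells of each library. In those with cDC2 marks alone it stood at 75.9 CPM (44.2–122) and 41.7 CPM (16.8–86.0), from 17 and 7 UMIs in 8 and 6 cells. Members with both held 287 and 121 CPM of Il12b, and those with neither 109 and 270 CPM. Between members with cDC1 or cDC2 marks alone, Ccl22 went the other way. It stood at 1347 CPM (1062–1686) and 1972 CPM (1660–2326) with cDC1 marks and 3220 CPM (2990–3464) and 2844 CPM (2594–3111) with cDC2 marks. These were 10 and 34 cells labelled WT and 10 and 28 labelled KO. Members with both held 2031 and 2212 CPM of Ccl22, and those with neither 3475 and 2291 CPM.

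Members differed widely among themselves. Ccr7 and Fscn1, which the rule used, had medians of 16.8 and 17.6 and of 29.6 and 25.1 UMIs per 10000. Cacnb3 was seen in 97.9% of WT-labelled and 94.9% of KO-labelled members, with medians of 8.65 and 9.30 UMIs per 10000. Ccl22 was seen in 91.5% and 83.3%, with medians of 14.5 and 11.0 per 10000 and maxima of 173 and 259, and the 10 and 14 highest cells held 47.0% and 46.7% of its UMIs. With each cell thinned to 2000 UMIs (95 and 133 of all members, leaving out 3 and 8 shallower cells), Ccl22 was seen in 85.3% (76.5–91.7%) and 71.4% (63.0–78.9%), against 1.41% and 1.28% of T cells at the same depth. Ccl5 spread further, from 0 to 567 and 852 UMIs per 10000 with medians of 42.6 and 38.1. Ccl17 was seen in 38.3% and 32.6% of members and Il12b in 23.4% and 22.5%, and the 10 and 14 highest cells held 74.8% and 76.3% of the UMIs of Ccl17 and 82.2% and 85.7% of those of Il12b. H2-Ab1 was seen in 64.9% and 64.5% of members. Thinned to 2000 UMIs the shares were 53.7% and 53.4% of all members, against 97.7% and 100% in cDC1 and 31.1% and 32.1% in T cells, which are not known to make it. It had medians of 3.23 and 2.74 UMIs per 10000 and upper quartiles of 24.3 and 17.3.

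Rank correlations over single members (94 labelled WT, 138 labelled KO, UMIs per 10000 of the cell) describe how these spreads went together. Cells of a library share its preparation and each pair of values shares the cell's depth. H2-Ab1 went with Cd74 (Spearman's rho 0.78 and 0.80) and against Ccl5 (-0.47 and -0.42). Ccl22 went with Ccl17 (0.51 and 0.47), another chemokine gene of chromosome 8, and showed no such order with Ccl5 (0.06 and 0.11) or H2-Ab1 (0.03 and 0.00). The rho of H2-Ab1 with the cell's total UMIs was 0.16 and 0.21.

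**Figure D3:**
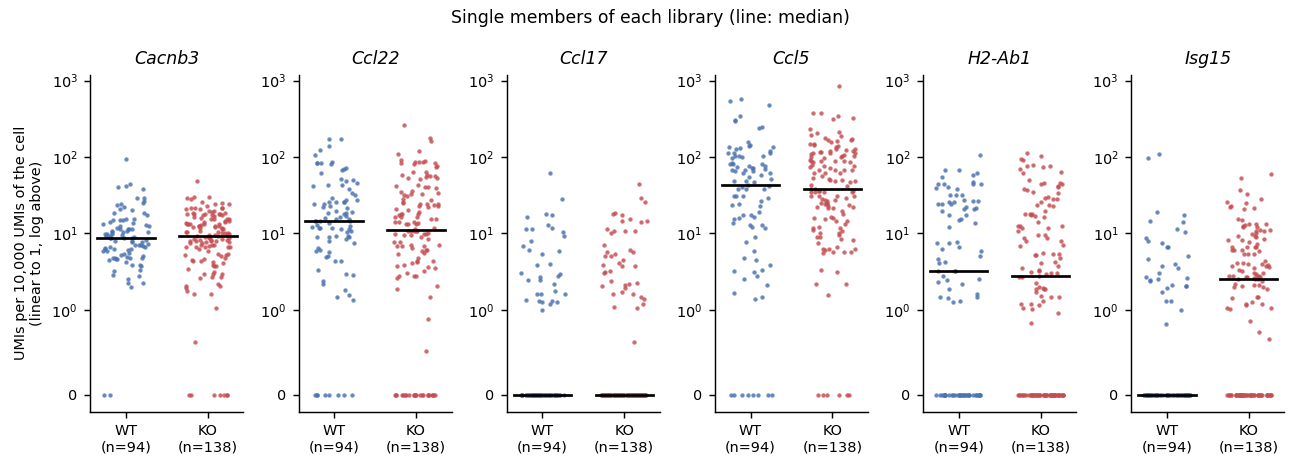
UMIs per 10000 of each of the 232 members, split by library (94 labelled WT, 138 labelled KO), for 6 genes, with the median as a line and an axis that is linear to 1 and logarithmic above. Cacnb3 and Ccl5 fill most cells, Ccl17 sits at 0 in most and is high in few, H2-Ab1 spans 0 to 106 and 112, and Isg15 has a median of 0 among cells labelled WT and 2.53 among those labelled KO.

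These few cells held much of what the tumour leucocytes expressed of several genes. All members held 1.68% and 1.65% of the UMIs of their libraries, but 61.2% (59.4–63.0%) of the Ccl22 UMIs labelled WT (1710 of 2793) and 63.1% (61.4–64.8%) of those labelled KO (1956 of 3100). For Cacnb3 the gate held 61.8% and 72.3%, for Il4i1 51.1% and 51.7%, for Cd200 44.8% and 40.3% and for Socs2 37.4% and 44.5%. Il12b lay here to 49.2% (41.7–56.7%) and 83.3% (77.8–87.9%), though to 70.6% in the library labelled KO without the 7 barcodes. Ccl17 lay here to 25.8% and 34.4% and Ccl5, shared with T cells, to 18.3% and 23.3%. Ligands that macrophages also make lay mostly elsewhere, with 4.90% and 5.70% for Cd274, 4.70% and 5.65% for Cxcl16 and 0.311% and 0.632% for Cxcl9. With no barcode kept out by its Cd3, C1q, S100a8 and S100a9 counts these shares were 8.04% and 6.59% for Cd274, 7.93% and 6.84% for Cxcl16 and 1.496% and 1.08% for Cxcl9, and the order of the libraries turned. It turned likewise for Ccl22 (73.5% and 72.3%), Cacnb3 (82.6% and 80.3%), Il4i1 (64.3% and 60.7%) and Socs2 (55.1% and 50.8%). The order held for Il12b (73.2% and 88.2%), Ccl17 (35.6% and 39.4%) and Ccl5 (26.7% and 29.6%), which were higher in the library labelled KO under both choices. Cd200 was lower there under both (54.8% and 47.8% with no barcode kept out).

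**Figure D4:**
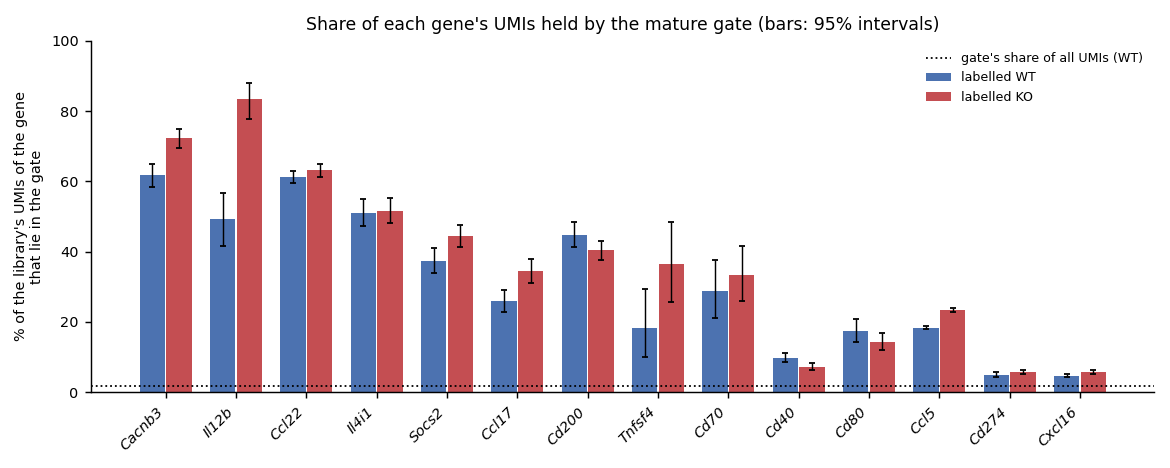
Percent of each library's UMIs of 14 genes that lie in the 239 members, with 95% counting intervals, and the gate's share of all UMIs labelled WT (1.68%) dotted. Ccl22 sits at 61.2% and 63.1%, and Cd274 and Cxcl16 stay below 6%.

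Between the libraries most genes stayed within 2-fold, and the number of genes past 2-fold turned on the 7 barcodes. With all 239 members, 68 of 2734 genes at 50 CPM or more were at least 2-fold higher in the library labelled KO (2.49%) and 170 at least 2-fold lower (6.22%). Without the 7 there were 66 higher (2.6%) and 12 lower (0.473%) of 2536, and the 2 versions shared 42 of the higher and 3 of the lower genes. The genes lowest with all members included Nppb, Car9, Adm and Sparc. The median of all genes was 0.03 and 0.06 log2 units. Ccl22 had the same level with all members, at 2227 and 2212 CPM (log2 KO over WT -0.01, -0.10 to 0.08), and a lower one in the cells labelled KO without the 7 (-0.32, -0.42 to -0.23). It was higher in the cells labelled KO when no barcode was kept out by its Cd3, C1q, S100a8 and S100a9 counts (0.31, 0.22 to 0.40) or when the highest doublet scores were left out (0.25, 0.15 to 0.34), so its direction turned on which barcodes were counted. The 4 barcodes left out of the library labelled WT held 0 of its 1710 Ccl22 UMIs in the gate and 24.6% of the gate's UMIs.

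**Figure D5:**
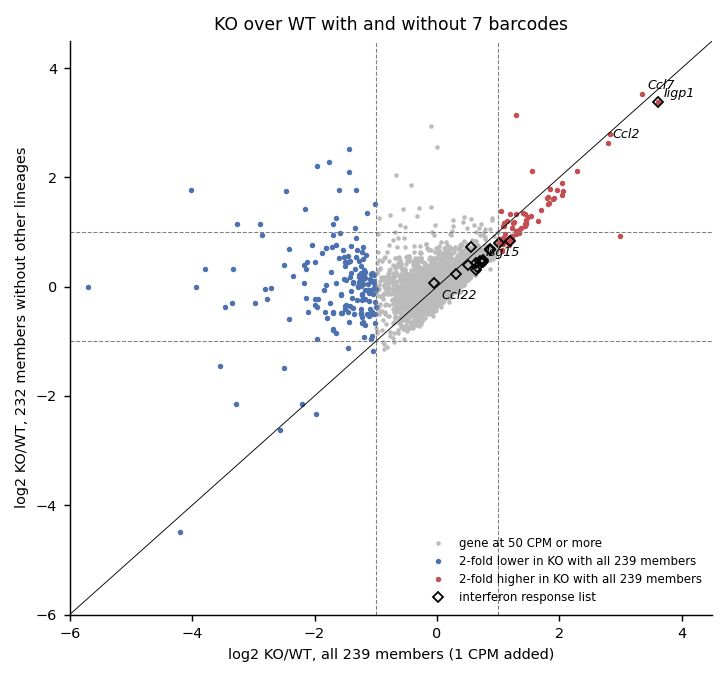
Log2 ratio of the library labelled KO over that labelled WT for each gene at 50 CPM or more, with all 239 members (x) and with the 232 (y), the interferon list as diamonds and dashed lines at 2-fold. Most of the 170 genes past 2-fold lower on x lie near 0 on y, whereas the interferon genes lie above 0 on y.

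The interferon list stood to one side. All 15 genes compared were higher in the members labelled KO without the 7 barcodes, and 14 of 15 with them, where 58.0% and 52.7% of all genes were, and its median was 0.46 log2 units (0.71 with all members). Isg15, a ubiquitin-like protein, stood at 375 CPM (326–428) and 517 CPM (469–569), a log2 ratio of 0.46 (0.23 to 0.71). Thinned to 2000 UMIs, Isg15 was seen in 28.4% (19.6–38.6%) of all members labelled WT and 46.6% (37.9–55.5%) of those labelled KO (36.7% and 66.7% unthinned). Its level was also higher in the library labelled KO in every other gate, at 150 and 205 CPM in cDC1, 179 and 433 in cDC2, 202 and 407 in macrophages and 96.7 and 229 in T cells. Irf7, an interferon regulatory factor, stood at 76.0 and 124 CPM (0.70, 0.18 to 1.25) and Ifi27l2a at 780 and 1068 CPM (0.45, 0.29 to 0.62). Iigp1, an immunity-related GTPase, had 3 UMIs in 2 cells labelled WT and 52 in 16 labelled KO. The list's median in the other gates was 0.33 in cDC1 (10 of 13 genes higher), 0.79 in cDC2 (21 of 21), 0.53 in macrophages (18 of 18) and 0.49 in T cells (13 of 13), where 56.7%, 54.6%, 51.8% and 60.6% of all genes were higher. Free RNA of other cells, such as macrophages with more Isg15, adds UMIs to every barcode, and its part in the members' level was not tested.

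For several other genes among the highest in the members labelled KO, 1 cell held much of the UMIs. Ccl7 had 10 UMIs labelled WT and 172 labelled KO, 81.4% of the latter in 1 cell, and stood at 1432 and 1622 CPM in macrophages. Ccl2 had 20 and 180, 62.8% of the latter in 1 of the 36 cells that held it, Ccl4 10 and 104 (48.1% in 1 cell) and Ccl6 25 and 135 (38.5%). Ctsl, a lysosomal protease, had 4 and 57 UMIs and Maf, a macrophage transcription factor, 9 and 58 UMIs in 6 and 14 cells. Slc30a5, a zinc transporter, had 7 and 46 UMIs, 87.0% of the latter in 1 cell, and Itgam, an integrin chain of myeloid cells, 9 and 46 in 5 and 16 cells. Cxcl2 had 10 and 88 UMIs without the 7 barcodes but stood at 100 and 101 CPM with them. Of 11 chemokines 5 were past 2-fold higher in each version, beside 2.49% and 2.6% of all genes. Ccl2, Ccl4, Ccl6 and Ccl9 were past it in both, Cxcl9 with all members and Cxcl2 without the 7. The list's median was 0.46 log2 units with all members and 0.86 without the 7, but 0.049 with no exclusions and 0.013 as a mean of per-cell levels. Among genes lower in the cells labelled KO, Gm45184 had 44 of its UMIs in 1 cell labelled WT, Txndc16 had 98.4% in 1 cell and Spp1 91.2%. Apol7c, a gene of mature DCs, was spread over more cells, with 142 UMIs in 28 cells labelled WT and 93 in 32 labelled KO (245 and 113 CPM, log2 -1.12, -1.51 to -0.73). Ebi3, the subunit shared by interleukin-27 and interleukin-35, had 34 UMIs in 22 cells and 20 in 18 (-1.27, -2.15 to -0.44).

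The lists that mark maturation had medians near 0 between the libraries once the 7 barcodes were left out, but fewer of their genes were above 0 than the 58.0% of all genes. Above 0 were 6 of 21 other maturation genes, 5 of 14 migration genes, 2 of 9 genes of the costimulation list and 10 of 20 NF-kB genes. The costimulation list shares Cd274 and Pdcd1lg2 with the inhibitory list. With all members the numbers were 17, 10, 7 and 18, beside 52.7% of all genes, so the side to which these lists leaned turned on the 7 barcodes. The medians without them were 0.00 for NF-kB, -0.06 for migration, -0.03 for other maturation genes, -0.08 for MHC class II, -0.01 for MHC class I, 0.05 for the DC factors, -0.16 for costimulation and -0.10 for the inhibitory list, beside 0.06 over all genes. The cytokine list stood at 0.33 (5 genes) and antigen uptake at 0.41 (5 genes). Ciita, the class II activator, was past 2-fold with all members (27.3 and 58.8 CPM) and stood at 36.3 and 63.1 CPM without the 7.

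Remaining lists were read for completeness of the picture. Of the m6A list, 8 genes were compared with the cDC gates (median -0.02, -0.10 without the 7) and 6 between the libraries (-0.20 and -0.15), with 0 past 2-fold. Hnrnpa2b1, a proposed reader, was the highest at 307 and 351 CPM, while Mettl14, the partner of Mettl3, had 5 and 11 UMIs and Ythdf1, a reader, 11 and 18. Of a list of 10 genes that restrain ERK signalling, 3 were compared. Dusp1, an immediate early phosphatase, stood at 214 and 142 CPM against 82.9 to 187 CPM in the cDC gates. Dusp5, a nuclear ERK phosphatase, stood at 323 and 312 CPM against 31.6 to 52.2 CPM in the cDC gates, and Spred1, an inhibitor of Ras signalling, at 86.3 and 109 CPM against 11.9 to 39.4 CPM. Spred2, of the same family, was under the 50 CPM floor, with 7 and 8 UMIs (12.1 and 9.71 CPM). The dissociation stress list had a median of -0.62 log2 units against the cDC gates (-0.63 without the 7) and 0.03 between the libraries (-0.03). Of the cell cycle list 16 genes were compared with the cDC gates, 0 above and 5 below all 4 levels with all members (36.1% of all genes), and 14 without the 7, 0 above and 11 below (44.6%), with a median of -0.79 (-2.02, or -1.90 with counts of 0 set at 3). Between the libraries its median was -1.03 with all members (9 genes, 5 at least 2-fold lower in the library labelled KO, beside 6.22% of all genes) and 0.19 without the 7 (3 genes). Mki67, the proliferation marker, had 4 and 7 UMIs in the 232 members and Top2a, a topoisomerase of dividing cells, 5 and 12, whereas all members labelled WT held 73 Top2a UMIs, 68 of them in the 4 barcodes left out.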

How the data were processed

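Live CD45+ cells of B16 tumours were sequenced with the Chromium 3' v3 kit, 1 library per genotype with several mice pooled. The authors deposited UMI counts per gene and barcode (31053 genes, 1 matrix with a table of libraries), made per the file headers with Cell Ranger 4.0.0 and per the labels on mm10; the methods say that low-quality cells, doublets and dead cells were removed, and the 14341 barcodes deposited included 523 outside that stated filter. Each UMI is 1 molecule, so levels carry no length term. Counts were summed over the members of each library and divided by the gate's total (CPM). CPM intervals are exact Poisson, shares exact Clopper-Pearson and log2 ratios exact conditional binomial, all for counting error only. With 1 library per genotype no test was made. Calls needed 50 CPM and a fold of 2 (KO over WT) or 4 in all 4 ratios (against cDC1 and cDC2 of each library), with 1 CPM added. Mitochondrial, ribosomal, haemoglobin and rule genes were left out. C1q-high macrophages held at least 30 C1q UMIs per 10000, and T cells at least 2 Cd3 UMIs.

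The members, the lists and the tests were chosen with earlier results of these data known. Named genes were, by rule, Mettl3, Mettl14, Ythdf1, Lyz2, Ccl22, up to 6 genes by level in each list with those past 2-fold, the 10 highest and lowest ratios between libraries, and the 15 highest and 10 lowest against the cDC gates. Genes named outside it (Anxa3, Birc2, Cd48, Cd63, Cd70, Irf4, Irf7, Lgals9, Map3k14, Marcksl1, Mki67, Mreg, Nfkb1, Nfkb2, Nfkbie, Rela, Relb, Samsn1, Stat4, Tbc1d4, Tmem123, Tnfaip3, Zbtb46 and the cell type markers with values) were chosen after their values were seen. Scrublet (scanpy 1.11.5) marked 1 barcode in each library by its automatic threshold, so the 256 and 532 highest scores were left out as an alternative. Scaling factors came from edgeR 4.0.16 in R 4.3.3. The code was tested on simulated data, which gives no error rate for these calls. Coordinates are from GENCODE M21 (GRCm38), and promoters from RefSeq. The kB consensus was searched by name as a pattern of 10 bases.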

Additional observations from a re-analysis of the deposited data

Results flagged for a closer look

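Some barcodes outside the members also held both rule genes. The gate's exclusions kept out 31 barcodes labelled WT and 23 labelled KO with Ccr7 and Fscn1, which held 12.2% (11.1–13.5%) and 9.16% (8.17–10.2%) of their libraries' Ccl22 UMIs at 555 and 852 CPM. They had medians of 20356 and 11281 UMIs and C1qa at 1757 and 1926 CPM beside Cacnb3 at 305 and 246 CPM. Whether a barcode is 1 cell or more was not tested.

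For 9 genes the counting intervals of the log2 ratio, KO over WT, lay on opposite sides of 0 in the 232 members and in C1q-high macrophages. The difference itself was not tested. Maf stood at 2.18 in the members and -0.16 in macrophages, Alox5ap at 1.10 and -0.07, and Fcer1g, the Fc receptor chain, at 0.23 and -0.10. Apol7c stood at -1.12 and 1.64, Atr at -1.25 and 0.47, Chil3 at -1.43 and 0.66, Spp1 at -1.19 and 0.11, Tbc1d10a at -1.07 and 0.26 and Txndc16 at -2.34 and 0.84. In the members 1 cell labelled WT held 98.4% of the Txndc16, 91.2% of the Spp1 and 80.6% of the Chil3 UMIs.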

How the results depend on the processing

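No paired analysis was possible because each genotype is 1 library, and no replicate could be left out. Of 241 values under 15 alternatives and 3 added after the data were seen, 187 stayed within their tolerance and 54 did not; 37 changed sign, 15 of them from a main value larger than its tolerance; the share of cells and the ratio to cDCs stayed within theirs. The log2 ratio of Ccl22 (-0.01) was -0.43 with at least 2 Ccr7 and 3 Fscn1 UMIs (the stricter gate), 0.31 with no exclusions, 0.25 without the highest Scrublet scores, -0.32 without the 7 barcodes, -0.12 as their mean per cell and -0.28 without the top cell. The gate's share of Ccl22 UMIs labelled WT was 64.2% with 1 Fscn1 UMI, 58.6% in the stricter gate, 73.5% with no exclusions, 69.1% without Scrublet's highest and 59.2% with that library thinned. Labelled KO it was 58.7% in the stricter gate, 72.3% with no exclusions and 68.6% without Scrublet's highest.

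Genes 2-fold higher in KO (68) numbered 22 with no exclusions, 234 at a floor of 20 CPM, 11 at 100 CPM and 1772 with none. Genes 2-fold lower (170) numbered 482, 70 and 2558 at those floors, 13 in the stricter gate, 64 with no exclusions, 28 by mean per cell and 60 without each gene's top cell; without the 7 barcodes they numbered 12, then 24 by mean per cell and 5 without the top cell. Genes 4-fold below the cDC gates (70) numbered 31 with no exclusions, 132 without Scrublet's highest, 130 by mean per cell, 127 with cells thinned to 2000 UMIs, 46 at 100 CPM and 40 with 5 CPM added.

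Medians of lists between the libraries moved in the stricter gate to -0.080 (NF-kB), -0.13 (migration), -0.11 (other maturation), -0.27 (MHC class II), -0.066 (MHC class I), 0.35 (antigen uptake) and 0.17 (cell cycle). By mean per cell they were 0.015 (migration), -0.0015 (other maturation), -0.0010 (MHC class II), 0.063 (MHC class I), -0.0084 (antigen uptake) and 0.18 (cell cycle), and without the 7 barcodes -0.062, -0.032, -0.075, -0.0076 and, for cell cycle, 0.19. Antigen uptake stood at -0.20 with no exclusions and 0.26 without Scrublet's highest. The chemokine median (0.46) was 0.049 with no exclusions, 0.28 without Scrublet's highest and 0.013 by mean per cell. Costimulation (0.18) and the inhibitory list (0.21) turned to -0.17 and -0.23 in the stricter gate and -0.16 and -0.10 without the 7. The cell cycle list held 9 genes with all members, at -1.03, and 3 without the 7; the cause of the moves was not tested. With counts of 0 set at 3, the lists' medians against the cDC gates were as given but for cell cycle.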
